A study of Ursus arctos with 12 samples.

Results

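The mRNA of F-box proteins and cullins was examined in the vastus lateralis, a thigh muscle, of the brown bear (Ursus arctos) in hibernation and in the active period. The members were chosen by name, as the genes whose symbol starts with FBXO, FBXL, FBXW or CUL followed by a digit, with FBXO32 left out. Of 30249 genes in the counts, 65 matched, and 58 of them had 30 or more reads summed over all libraries: 8 cullins, 27 FBXO genes, 16 FBXL genes and 7 FBXW genes. The other 7 were below that limit: FBXO41 had 18 reads, FBXO43 15, FBXO2 8, FBXO15 8, FBXO16 5, FBXL13 3 and FBXO39 0. The members closest above the limit were FBXO47 with 71 reads and FBXL2 with 90.

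The RNA came from 6 free-ranging bears aged 2-3 years, and per the study's methods the same animals were biopsied in February, while hibernating, and captured again in June of the same year, while active. This gave 6 winter and 6 summer libraries of poly-A RNA, sequenced as stranded single reads. Both groups were wild animals under anaesthesia, and neither labels nor methods give a treatment or genetic change. A biopsy holds every cell type of the tissue, and season, fasting, inactivity and the months between captures differ together between the groups. The question was how the muscle transcripts of the same animal differ between hibernation and activity.

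Cullins are long scaffold proteins. At one end a cullin holds a small RING protein, RBX1 or RNF7, that brings in a ubiquitin-charged enzyme, and at the other end it holds an adaptor with a substrate receptor that picks the protein to be tagged. F-box proteins are the receptors of CUL1: through the F-box they bind the adaptor SKP1, and through leucine-rich repeats (FBXL), WD40 repeats (FBXW) or other domains (FBXO) they bind substrates. In muscle this family is known for FBXO32 (atrogin-1) and other F-box proteins that are switched on when fibres waste, and a cullin is made active by attachment of the ubiquitin-like protein NEDD8.

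The libraries held 20191068 to 27283155 reads on genes in summer and 16742406 to 32140160 in winter. Counts were scaled by TMM and are given as CPM, read counts relative to the scaled library size, which are not corrected for gene length, so a level is compared here only with the same gene. Winter was compared with summer within bears by edgeR's quasi-likelihood test over 17290 genes, and a gene was called at a Benjamini-Hochberg adjusted p below 0.05. Of all genes tested, 19.6% were called higher in winter and 21.2% lower, 40.8% in either direction, and the median log2 fold change was −0.0054. The 10 muscle fibre markers were present in every library, with a summed level of 129796 to 225388 CPM in summer and 142245 to 182536 CPM in winter, and of these 2 were higher in winter (TTN and NEB) and 3 lower (ACTA1, MB and PYGM). Markers of several other cell types were lower in winter. Of the fibroblast markers 7 of 8 were lower, with a summed level of 4234 to 11366 CPM in summer and 280.3 to 1695 CPM in winter. Of the endothelial markers 5 of 7 were lower (628 to 957 against 416 to 483 CPM), of the smooth muscle and pericyte markers 3 of 6, of the macrophage and leukocyte markers 4 of 6 and of the satellite cell markers 3 of 3 (4.43 to 9.44 against 1.27 to 2.82 CPM). Of the adipocyte markers 1 of 5 was lower, and of the erythroid markers 0 of 2 tested. The part of these cell types in the results on F-box and cullin genes was not tested, and in bulk tissue fewer cells of a type and less RNA per cell cannot be told apart. The winter library of bear 1509 stood apart from the rest. It correlated at 0.954 with the mean of the other winter libraries, whose own values were 0.976 to 0.986.

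Of the 58 members, 20 were higher in winter and 6 were lower, and 32 were not called. As shares these are 34.5% higher and 10.3% lower, against the 19.6% and 21.2% of all genes. The median log2 fold change of the members was 0.24. The cullins held 6 of the rises among 8 genes and no fall, with a median of 0.48. Among the F-box genes, 14 of 50 were higher (28%) and 6 lower (12%), with a median of 0.20. Of the FBXO genes 6 of 27 rose (22.2%, near the share of all genes) and 3 fell (11.1%), with a median of 0.09. Of the FBXL genes 5 of 16 rose (31.25%) and 2 fell (12.5%), with a median of 0.23. Of the FBXW genes 3 of 7 rose (42.9%) and 1 fell (14.3%), with a median of 0.20. Without bear 1509, 19 members were higher (32.8%) and 5 lower (8.62%), against 21.1% and 21.9% of all genes. The study's stricter limits ask for a fold change over 1.3 or under 0.77 at an adjusted p under 0.01. They left 9 of the 58 members higher and 2 of the 58 lower, against 12.2% and 13.4% of all genes. The number of rises also depended on single bears and on scaling: it was 11 (19.0%) without bear 1305 against 15.5% of all genes, and 13 (22.4%) without bear 1316 against 17.4%. Scaling by library totals, which shifted the log2 fold changes of all genes by a median of −0.08, gave 11 rises (19.0%) against 15.6% and 6 falls (10.3%) against 23.6%. In these fits the share of members that rose lay near the share of all genes. Of the F-box genes 8 were higher without bear 1305 and 8 with library totals, 16.0% in both.

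Counted without a model, 19 members were higher in winter in 6 of 6 bears and 4 were lower in 6 of 6, which is 32.8% and 6.9% of the members, against 18.4% and 19.0% of all genes. In 7 members (12.1%) every winter library lay above every summer library, near the 9.12% of all genes. In 2 members (3.45%) every winter library lay below, against 8.21% of all genes. These were CUL1, FBXW12, FBXO3, FBXL5, FBXO8, FBXO28 and FBXL17 on the high side and FBXO27 and FBXL7 on the low side. Of the 26 called members, 14 were called in the same direction in all 14 alternative fits, which changed the tool, the scaling, the filter, the pairing or the bears included. These were CUL1, CUL3, FBXW12, FBXO3, FBXL5, FBXO8, FBXL22, FBXL18, FBXO9 and FBXO28, which were higher, and FBXO27, FBXL7, FBXL8 and FBXW7, which were lower.

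**Figure D1:**
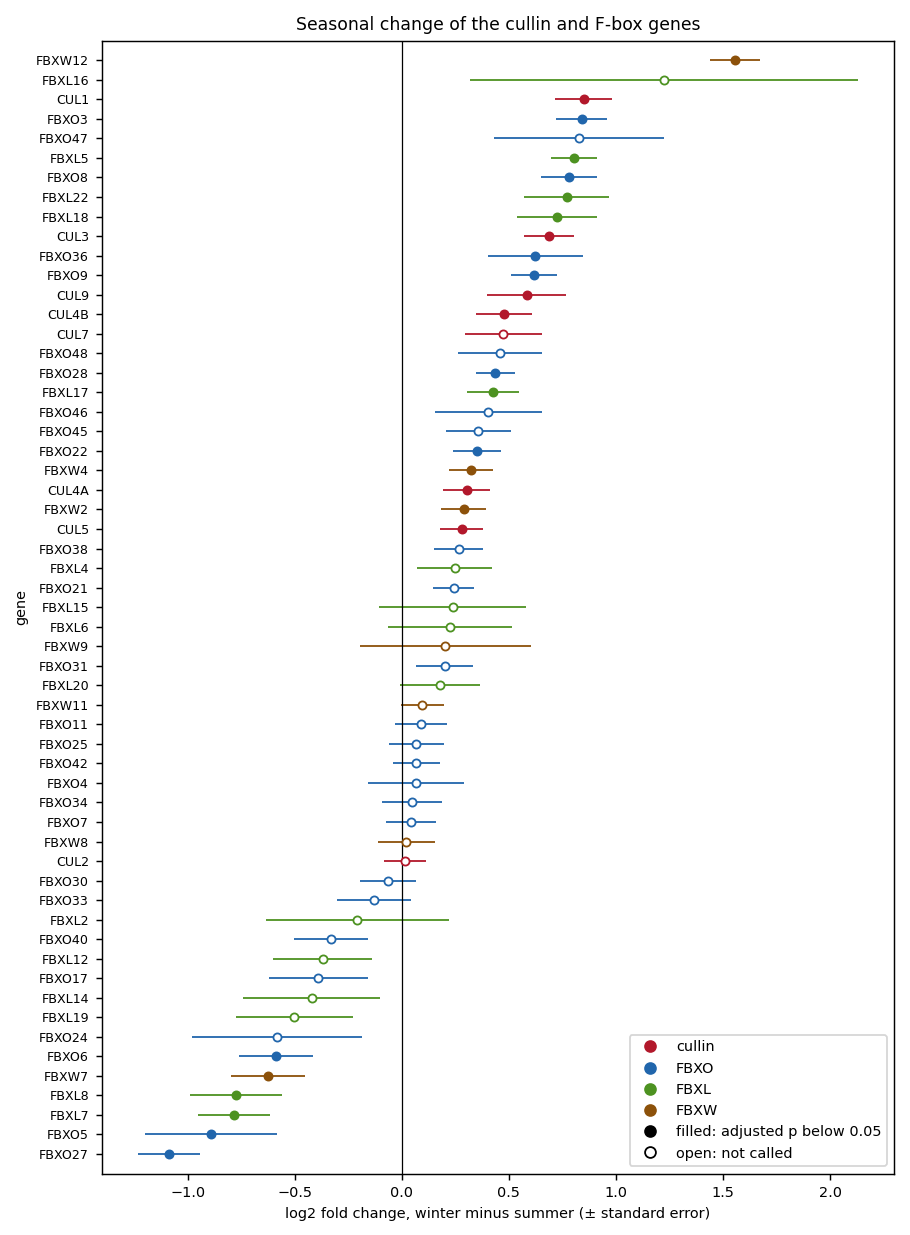
Log2 fold change, winter minus summer, of 57 members (x axis) with 1 row per gene (y axis), sorted by size. Points are edgeR estimates over 6 bears, bars are ± 1 standard error, colours give the gene family, and filled points have an adjusted p below 0.05. Filled points on the right number 19 and on the left 6, and FBXW12 lies farthest to the right of those filled, at 1.55.

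Of the 8 cullins, 6 rose with all bears, and 7 did in DESeq2 and limma voom with the replicate block. The count was 3 without bear 1305, 1316, 1317 or 1512, 5 without bear 1509 or 1511, and 3 with library totals, and CUL1 and CUL3 were called in each of these fits. The CUL1 transcript, the scaffold of the SKP1 and F-box ligases, was 1.80-fold higher in hibernating muscle, and CUL3, the scaffold for receptors with a BTB domain, was 1.61-fold higher. CUL1 ran from 77.0 to 97.0 CPM in summer (median 83.2) and from 117 to 215 CPM in winter (median 153). The groups did not overlap, and each bear rose, from 0.58 in bear 1511 to 1.41 in bear 1316 on the log2 scale (log2 fold change 0.85 ± 0.13 (SE), adjusted p = 0.000660). CUL3 ran from 116 to 168 CPM in summer (median 130.4) and from 155 to 262 CPM in winter (median 229). All 6 bears were higher in winter, although the summer library of bear 1512 was above the winter library of bear 1511 (log2 fold change 0.68 ± 0.12 (SE), adjusted p = 0.00112). Over the alternative fits the adjusted p was 3.05e-08 to 0.00330 for CUL1 and 2.88e-07 to 0.00667 for CUL3.

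CUL4A and CUL4B are close relatives that hold DDB1 and its receptors, and both rose. CUL4A ran from 175 to 209 CPM in summer (median 186) and from 194 to 277 CPM in winter (median 233). The increase was seen in 6 of 6 bears, with overlap between the seasons (log2 fold change 0.30 ± 0.11 (SE), adjusted p = 0.0463). CUL4B ran from 15.8 to 24.7 CPM in summer (median 19.9) and from 24.7 to 33.1 CPM in winter (median 27.3). Here too 6 of 6 bears were higher in winter, and the summer library of bear 1512 lay just above the lowest winter library (log2 fold change 0.48 ± 0.13 (SE), adjusted p = 0.0141). The CUL4A call was close to the threshold and was lost in 7 of 14 alternative fits. Without bear 1305, 1316, 1317, 1509 or 1512 its adjusted p was 0.126, 0.122, 0.0541, 0.058 or 0.0909, and with library totals 0.205, the range over all alternatives being 0.00254 to 0.205. CUL4B lost its call with library totals (adjusted p = 0.0667, range over alternatives 0.00187 to 0.0667).

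CUL2 and CUL5 both hold elongin B and C with their receptors, and CUL5 rose while CUL2 did not pass the test. CUL5 ran from 101 to 138 CPM in summer (median 107) and from 116 to 163 CPM in winter (median 137). It was higher in 6 of 6 bears with overlapping groups (log2 fold change 0.28 ± 0.10 (SE), adjusted p = 0.0437). The call was lost in 8 of 14 alternative fits. Among them were the fits without bear 1305 (adjusted p = 0.105), 1316 (0.0749), 1317 (0.0598), 1509 (0.0785) or 1512 (0.0855). Another was a fit without the pairing of libraries by bear, the replicate block (0.0619), the range over alternatives being 0.0220 to 0.227. CUL2 ran from 57.8 to 71.6 CPM in summer (median 62.4) and from 54.5 to 75.0 CPM in winter (median 61.9). The seasons covered the same range, with 3 bears higher and 3 lower (log2 fold change 0.01 ± 0.10 (SE), adjusted p = 0.920).

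CUL9 and CUL7 form a pair of unusual large cullins, and CUL7 works with the F-box protein FBXW8. CUL9 ran from 8.02 to 13.7 CPM in summer (median 11.0) and from 9.71 to 21.8 CPM in winter (median 17.1). Only bear 1509 was lower in winter, by −0.49 against 1.01 in bear 1316 on the log2 scale (log2 fold change 0.58 ± 0.18 (SE), adjusted p = 0.0270), and without that bear it was 0.80 (adjusted p = 0.000605). The CUL9 call was lost without bear 1305 (adjusted p = 0.0887), 1316 (0.0811), 1317 (0.0629), 1511 (0.0541) or 1512 (0.0818), the range over alternatives being 0.000605 to 0.0887. CUL7 ran from 28.8 to 46.0 CPM in summer (median 42.0) and from 26.4 to 71.3 CPM in winter (median 62.6). Bear 1509 again was the exception among 6: its winter library had 26.4 CPM, the lowest of all 12 libraries, while the other 5 winter libraries had 53.7 CPM or more, above every summer library. CUL7 was not called in the main fit (log2 fold change 0.47 ± 0.18 (SE), adjusted p = 0.0538). It was called in 6 of 14 alternative fits, some of them with all bears. Without bear 1509 the log2 fold change was 0.69 with an adjusted p of 0.00053, the range over alternatives being 0.000531 to 0.156. FBXW8, the receptor of CUL7, had a log2 fold change of 0.02 ± 0.13 (adjusted p = 0.918).

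**Figure D2:**
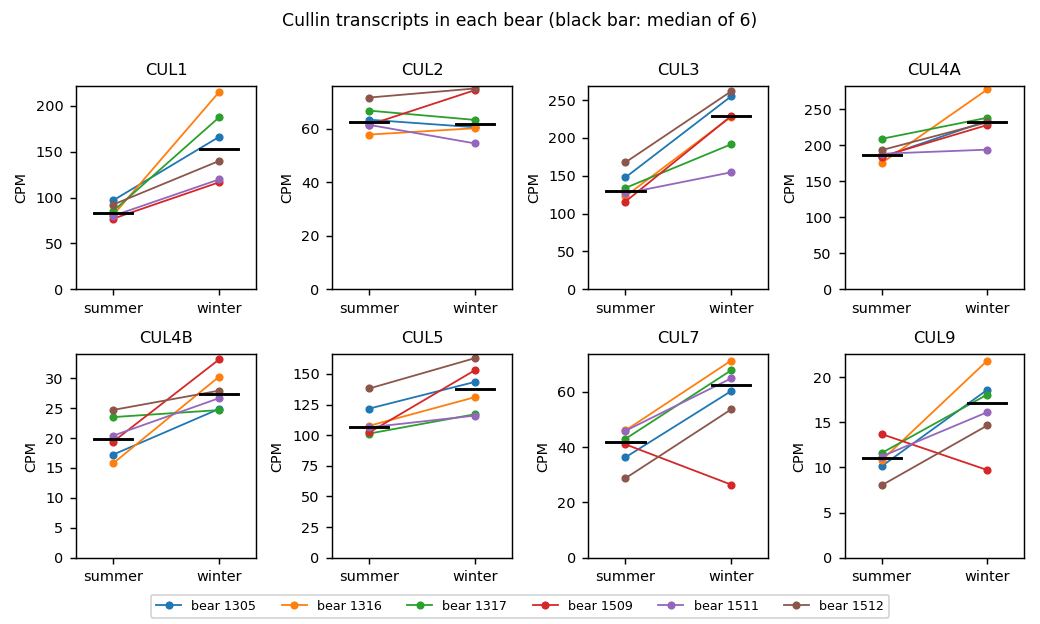
CPM (y axis, linear, from 0) of the 8 cullin transcripts in summer and winter (x axis). Each coloured line joins the libraries of 1 bear and black bars are medians of 6. CUL1 is the only panel in which the seasons do not overlap, and bear 1509 (red) is the only line that falls for CUL7 and CUL9.

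The largest rise among the called F-box genes was that of FBXW12, which was 2.93-fold higher in winter. FBXW12 ran from 3.15 to 10.1 CPM in summer (median 6.93) and from 10.2 to 26.2 CPM in winter (median 20.1). The 6 bears rose by 1.28 to 1.67 on the log2 scale, and the lowest winter library, of bear 1511, lay just above the highest summer library, of bear 1316 (log2 fold change 1.55 ± 0.12 (SE), adjusted p = 1.30e-05). This was the smallest adjusted p among the members, and its range over alternatives was 3.08e-25 to 0.000845.

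FBXO3, FBXL5, FBXO8 and FBXO9 rose by 1.54- to 1.79-fold. FBXO3 ran from 51.7 to 65.5 CPM in summer (median 59.4) and from 85.4 to 119 CPM in winter (median 110.4). FBXO3 is known for targeting another F-box protein, FBXL2, and its groups did not overlap (log2 fold change 0.84 ± 0.12 (SE), adjusted p = 0.000390). FBXL5 ran from 45.8 to 61.7 CPM in summer (median 52.7) and from 84.7 to 103 CPM in winter (median 93.8). FBXL5 is the iron-sensing receptor that removes the iron regulatory protein IREB2, and all its winter libraries lay above all summer libraries (log2 fold change 0.80 ± 0.11 (SE), adjusted p = 0.000243). FBXO8 ran from 5.39 to 8.29 CPM in summer (median 6.24) and from 9.87 to 13.2 CPM in winter (median 10.5). FBXO8 carries a Sec7 domain beside its F-box, and its groups did not overlap either (log2 fold change 0.78 ± 0.13 (SE), adjusted p = 0.000990). FBXO9 ran from 49.0 to 72.1 CPM in summer (median 57.5) and from 64.2 to 104 CPM in winter (median 93.3). FBXO9 was higher in 6 of 6 bears, and only the winter library of bear 1511 reached down into the summer range (log2 fold change 0.62 ± 0.11 (SE), adjusted p = 0.00127).

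Of the leucine-rich repeat members, FBXL22 and FBXL18 came next in size. FBXL22 ran from 0.999 to 1.68 CPM in summer (median 1.28) and from 1.32 to 2.65 CPM in winter (median 2.51). FBXL22 is a receptor enriched in striated muscle that binds Z-disc proteins of the sarcomere, and it was higher in 6 of 6 bears with only the winter library of bear 1509 within the summer range (log2 fold change 0.77 ± 0.20 (SE), adjusted p = 0.0103). FBXL18 ran from 6.26 to 9.84 CPM in summer (median 8.39) and from 8.22 to 18.5 CPM in winter (median 13.8). FBXL18 is known for targeting FBXL7, and 5 of 6 bears were higher, with bear 1509 at −0.26 on the log2 scale (log2 fold change 0.72 ± 0.19 (SE), adjusted p = 0.00999), and 0.92 over the other bears (adjusted p = 0.000601, range over alternatives 0.000195 to 0.0384).

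FBXL17 also rose. FBXL17 ran from 60.3 to 76.3 CPM in summer (median 72.7) and from 80.7 to 111 CPM in winter (median 93.9). FBXL17 removes wrongly paired BTB proteins, and its groups did not overlap (log2 fold change 0.43 ± 0.12 (SE), adjusted p = 0.0170). Leaving out bear 1305 or 1512 moved the adjusted p of FBXL17 to 0.0765 or 0.0535, the range being 0.000586 to 0.0765. Its call was lost in 3 of 14 alternative fits.

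The rise of FBXO28 was small but even. FBXO28 ran from 26.9 to 31.8 CPM in summer (median 28.5) and from 34.4 to 44.0 CPM in winter (median 39.5). It differed between seasons by 0.35 to 0.53 in single bears, and the groups did not overlap (log2 fold change 0.44 ± 0.09 (SE), adjusted p = 0.00365). FBXO36 ran from 0.878 to 1.62 CPM in summer (median 1.29) and from 1.56 to 2.52 CPM in winter (median 1.91). FBXO36 was higher in 5 of 6 bears (log2 fold change 0.62 ± 0.22 (SE), adjusted p = 0.0429), with an adjusted p of 0.114, 0.0857, 0.114 or 0.102 without bear 1305, 1316, 1317 or 1511 and a range of 0.0214 to 0.114. Its call was lost in 7 of 14 alternative fits.

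FBXO22 ran from 9.78 to 11.8 CPM in summer (median 10.7) and from 11.3 to 15.7 CPM in winter (median 13.4). FBXO22, which targets the histone demethylase KDM4A, was higher in 6 of 6 bears (log2 fold change 0.35 ± 0.11 (SE), adjusted p = 0.0296). Leaving out bear 1305, 1316 or 1512 gave an adjusted p of 0.0914, 0.0651 or 0.0912, the range being 0.00488 to 0.135. In all, 5 of 14 alternative fits lost the call. A newer RefSeq table gives the symbol FBXO22 to a different gene entry of these counts, LOC113249425 with 1643 reads and a log2 fold change of −0.52 ± 0.25 (adjusted p = 0.122), so the reads of FBXO22 may be divided and its value is uncertain.

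Further called rises were those of FBXW2 and FBXW4, the second of which was named after its value was seen. FBXW2 ran from 89.8 to 119 CPM in summer (median 96.1) and from 96.9 to 137 CPM in winter (median 124). It rose in 6 of 6 bears (log2 fold change 0.29 ± 0.10 (SE), adjusted p = 0.0468), and its adjusted p was 0.126, 0.107, 0.0544, 0.0857 or 0.0682 without bear 1305, 1316, 1317, 1509 or 1512, the range being 0.0189 to 0.232. The FBXW2 call was lost in 7 of 14 alternative fits. FBXW4 ran from 24.9 to 31.0 CPM in summer (median 26.8) and from 27.9 to 45.2 CPM in winter (median 34.7). It was also higher in 6 of 6 bears (log2 fold change 0.32 ± 0.10 (SE), adjusted p = 0.0262), with an adjusted p of 0.0532, 0.0719, 0.0644 or 0.0605 without bear 1305, 1316, 1317 or 1511 and a range of 0.0190 to 0.120. The FBXW4 call was lost in 6 of 14 alternative fits.

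FBXO27 fell most of the called members, to 0.471 of its summer level. FBXO27 ran from 5.63 to 9.66 CPM in summer (median 7.09) and from 2.65 to 4.41 CPM in winter (median 3.42). The groups did not overlap and 6 of 6 bears were lower, by −0.72 to −1.35 on the log2 scale (log2 fold change −1.09 ± 0.15 (SE), adjusted p = 0.000279). FBXO27 belongs to the F-box proteins that bind N-glycans on glycoproteins, and so does FBXO6. FBXO6 ran from 11.2 to 17.8 CPM in summer (median 13.4) and from 7.01 to 16.9 CPM in winter (median 8.06). FBXO6 was lower in 5 of 6 bears, while in bear 1511 it was 0.25 higher in winter (log2 fold change −0.59 ± 0.17 (SE), adjusted p = 0.0198), and leaving out bear 1305 or 1316 gave an adjusted p of 0.0557 or 0.0656, the range being 0.00417 to 0.0656. The third tested member of this type, FBXO17, was not called (log2 fold change −0.39 ± 0.23, adjusted p = 0.206, lower in 5 of 6 bears). FBXO2 had only 8 reads. FBXO44, a relative of FBXO6, is not a member by symbol in these counts and is given under other observations.

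FBXL7 and FBXW7 also fell. FBXL7 ran from 8.17 to 9.94 CPM in summer (median 9.61) and from 3.86 to 7.10 CPM in winter (median 5.71). Every winter library of FBXL7, a receptor for the mitotic kinase Aurora A, lay below every summer library (log2 fold change −0.78 ± 0.17 (SE), adjusted p = 0.00377). FBXW7 ran from 31.9 to 63.6 CPM in summer (median 45.5) and from 23.8 to 40.0 CPM in winter (median 30.4). FBXW7, the receptor for cyclin E, MYC and NOTCH, was lower in 5 of 6 bears, and bear 1509 was the exception at 0.33 on the log2 scale (log2 fold change −0.62 ± 0.17 (SE), adjusted p = 0.0145). Without that bear it was −0.80 (adjusted p = 0.000688, range over alternatives 0.000688 to 0.0498).

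FBXO5 and FBXL8 had few reads. FBXO5 ran from 0.587 to 1.19 CPM in summer (median 0.998) and from 0.327 to 0.619 CPM in winter (median 0.489). FBXO5, the inhibitor of the anaphase-promoting complex known as EMI1, had 8 to 29 reads per library and was lower in 6 of 6 bears (log2 fold change −0.89 ± 0.31 (SE), adjusted p = 0.0386). The FBXO5 call was lost with DESeq2 (adjusted p = 0.0922) and without bear 1305 (0.0973), 1316 (0.104), 1509 (0.0728) or 1511 (0.0938), the range being 0.0168 to 0.104. FBXL8 ran from 1.48 to 2.59 CPM in summer (median 1.85) and from 0.717 to 1.56 CPM in winter (median 1.18). FBXL8 was lower in 6 of 6 bears, with 13 to 65 reads per library (log2 fold change −0.77 ± 0.21 (SE), adjusted p = 0.0149).

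**Figure D3:**
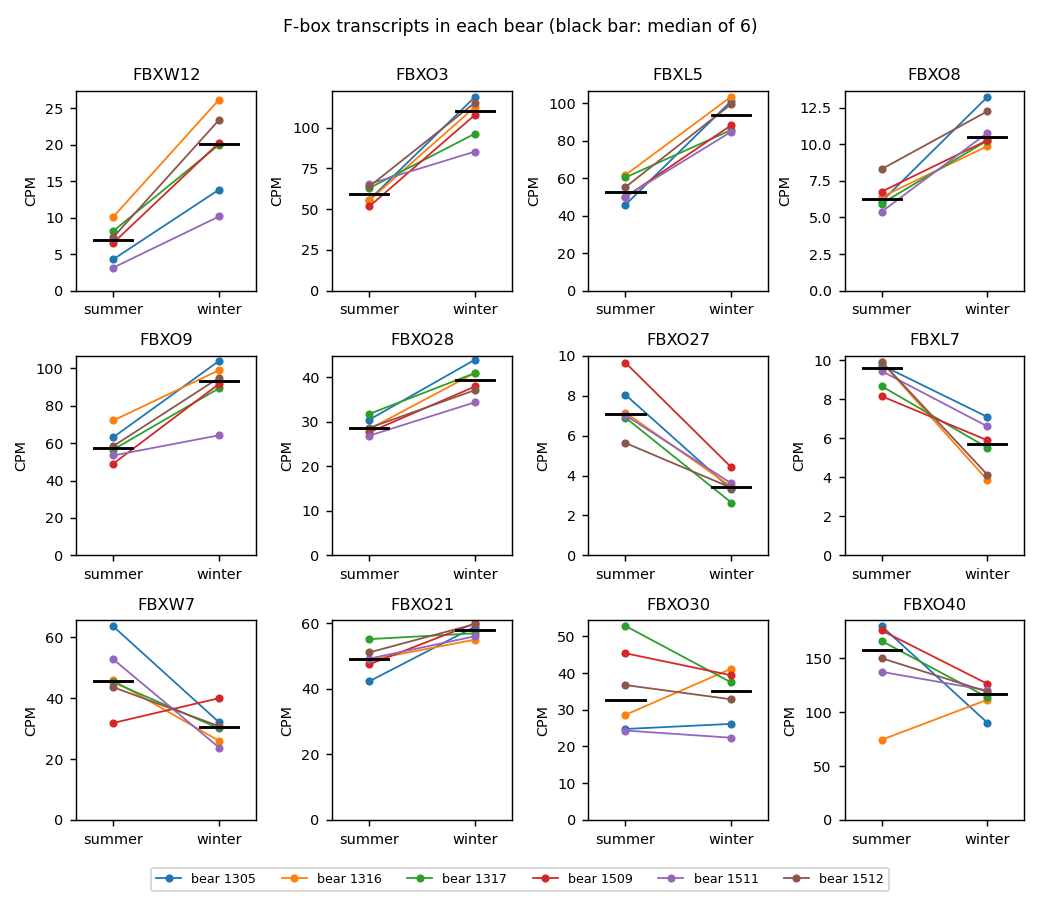
CPM (y axes, linear, from 0) of 12 F-box transcripts in summer and winter (x axes). Lines join the libraries of 1 bear and black bars are medians of 6. FBXW12, FBXO3, FBXL5, FBXO8 and FBXO28 lie higher in every winter library, FBXO27 and FBXL7 lie lower in every winter library, and the seasons overlap for FBXO9, FBXW7, FBXO21, FBXO30 and FBXO40.

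Of the F-box genes studied in muscle wasting, 4 besides FBXO32 were chosen here: FBXO21 (SMART), FBXO30 (MUSA1), FBXO31 and FBXO40. This choice is not a full list of such genes. These 4 were not called, and 1 of them (FBXO21) had an unadjusted p below 0.05. FBXO21 ran from 42.3 to 55.2 CPM in summer (median 49.0) and from 55.1 to 60.0 CPM in winter (median 58.0). Its winter libraries were higher in 6 of 6 bears with a slight overlap at 55.1 and 55.2 CPM (log2 fold change 0.24 ± 0.10 (SE), adjusted p = 0.0678). FBXO21 was called in 2 of 14 alternative fits. In a fit without the replicate block its adjusted p was 0.0315, the range over alternatives being 0.00691 to 0.324. FBXO30 ran from 24.3 to 52.8 CPM in summer (median 32.7) and from 22.4 to 41.2 CPM in winter (median 35.2). The seasons shared this range, with 2 bears higher and 4 lower (log2 fold change −0.06 ± 0.13 (SE), adjusted p = 0.723).

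FBXO31 ran from 166 to 229 CPM in summer (median 193) and from 186 to 267 CPM in winter (median 228). In 4 of 6 bears it was higher in winter (log2 fold change 0.20 ± 0.13 (SE), adjusted p = 0.250), and with FBXO40 and FBXW2 it had the most reads of the F-box members. FBXO40 ran from 74.3 to 179.9 CPM in summer (median 158) and from 90.2 to 126 CPM in winter (median 116). FBXO40 is a receptor restricted to muscle that targets IRS1, and its winter level was below the summer level in 5 of 6 bears, while bear 1316 had the lowest summer library (log2 fold change −0.33 ± 0.17 (SE), adjusted p = 0.149). Without bear 1316 FBXO40 was called lower, at −0.51 with an adjusted p of 0.0162, the range over alternatives being 0.0162 to 0.369.

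Among the other members that were not called, several have well known roles. FBXW11 (β-TrCP2), the receptor for β-catenin and IκB, had a log2 fold change (± SE) of 0.10 ± 0.10 (adjusted p = 0.461), and FBXO11 had 0.09 ± 0.12 (adjusted p = 0.586). FBXO7, mutated in a form of parkinsonism, had 0.04 ± 0.11, and FBXL4, whose loss depletes mitochondrial DNA, had 0.25 ± 0.17. FBXO25, the closest relative of FBXO32, ran from 6.50 to 8.44 CPM in summer and from 6.57 to 8.11 CPM in winter, with 0.07 ± 0.13 (adjusted p = 0.695). None of these 5 passed the test in any fit.

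FBXO38, FBXO48 and FBXO46 were called in some fits only, and FBXO38 and FBXO48 were named after their values were seen. FBXO38 had a log2 fold change (± SE) of 0.27 ± 0.11 (adjusted p = 0.0848) and FBXO48 0.46 ± 0.20 (adjusted p = 0.0842). In a fit without the replicate block the adjusted p became 0.0491 for FBXO38 and 0.0487 for FBXO48. The ranges were 0.0251 to 0.323 and 0.0345 to 0.186. FBXO46 had 0.40 ± 0.25 (adjusted p = 0.219), and without bear 1509 it had 0.63 with an adjusted p of 0.0322, the range being 0.0322 to 0.464. FBXL16 had the widest error of the members. Its counts were 4 to 7 reads in the summer libraries and 1 to 8 in 5 winter libraries, but 231 reads, or 12.7 CPM, in the winter library of bear 1509 (log2 fold change 1.23 ± 0.91 (SE), adjusted p = 0.303). In a fit without the replicate block its log2 fold change was 3.27 with an adjusted p of 0.0331. Without bear 1509 it was 0.0085 with an adjusted p of 0.992, so its value rested on that library.

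FBXO45 and FBXO47 were higher in 6 of 6 bears without reaching the threshold (log2 fold change 0.36 ± 0.15, adjusted p = 0.0790, and 0.83 ± 0.40, adjusted p = 0.120), the latter with 2 to 12 reads per library. The rest were FBXO4, FBXO24, FBXO33, FBXO34, FBXO42, FBXL2, FBXL6, FBXL12, FBXL14, FBXL15, FBXL19, FBXL20 and FBXW9. Their log2 fold changes lay between −0.58 (FBXO24) and 0.24 (FBXL15), and none reached an adjusted p below 0.05 in any fit. At an unadjusted p below 0.05, 25 of all 58 members were higher and 6 lower, against 23.9% and 25.5% of all genes.

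Bears differed in how far the members moved as a group. The median member change was lowest in bear 1317, at 0.11 on the log2 scale, and highest in bear 1316, at 0.32, while the median over all genes lay between −0.03 and 0.01 in every bear. Between 32 members (bears 1317 and 1509) and 42 members (bears 1305 and 1512) of the 58 were higher in winter. The median cullin change was positive in each bear, from 0.34 in bear 1511 to 0.78 in bear 1316. The winter library of bear 1509 was the lowest of the winter libraries for 19 members and the highest for 10.

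**Figure D4:**
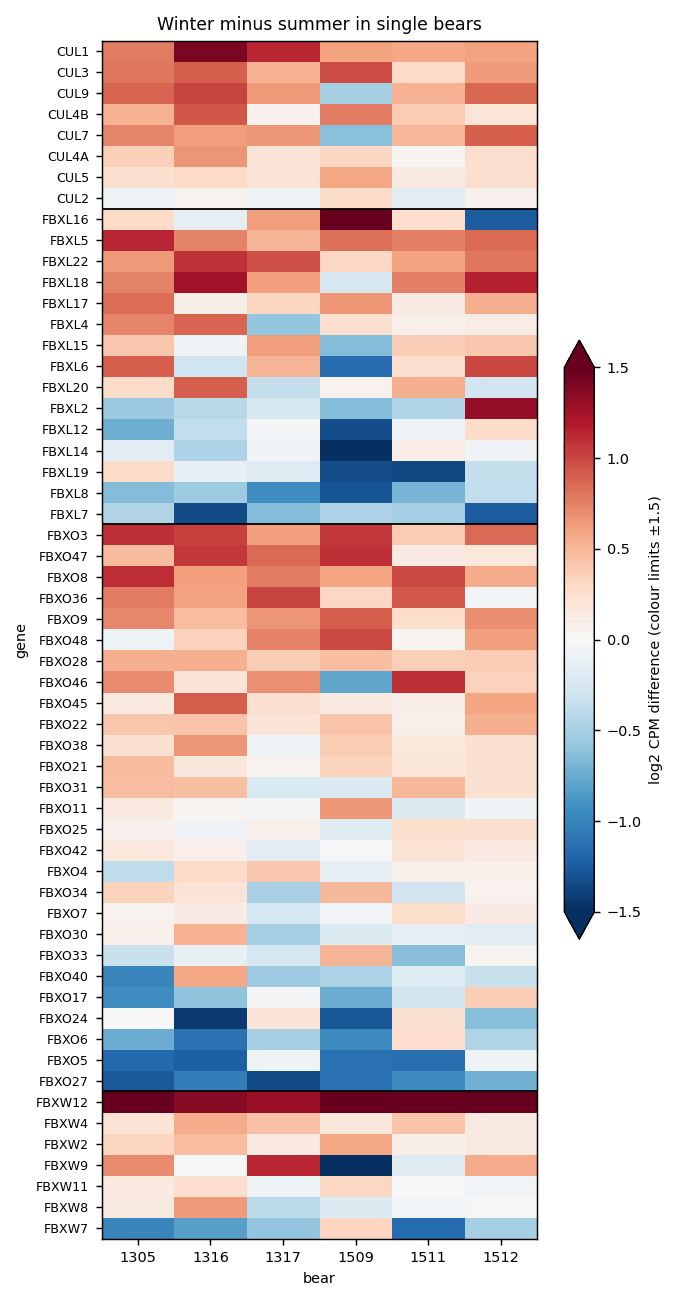
Winter minus summer log2 CPM of 57 members (y axis) in each of 6 bears (x axis), with colour limits of ± 1.5, red for higher and blue for lower in winter. Black lines separate cullins, FBXL, FBXO and FBXW genes. FBXW12 and CUL1 are red and FBXO27 and FBXL7 are blue in all 6 columns, and bear 1509 departs from the other bears for CUL7, CUL9, FBXL16 and FBXW7.

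The partners of these ligases were taken from lists of 173 tested genes. Of these 30 were higher and 36 lower, which is 17.3% and 20.8% against 19.6% and 21.2% of all genes, with a median of −0.01. Among the 7 tested SCF core and RING partners, the elongin ELOC rose (log2 fold change 0.69 ± 0.11 (SE), adjusted p = 0.000939). RNF7, the RING partner of CUL5, fell (log2 fold change −0.46 ± 0.12 (SE), adjusted p = 0.0106). The elongin ELOB was not called and was higher in 3 of 6 bears (log2 fold change −0.17 ± 0.36 (SE), adjusted p = 0.729). SKP1, the adaptor between CUL1 and F-box proteins, had a log2 fold change of 0.06 ± 0.12 (adjusted p = 0.736), and RBX1 had 0.19 ± 0.09 (adjusted p = 0.140). DDB1, the adaptor of the CUL4 pair, had 0.28 ± 0.11 (adjusted p = 0.0612). It was called in 5 of 14 alternative fits, the adjusted p over all alternatives being 0.0141 to 0.248. Among the 5 were the fit without bear 1509 (0.35, adjusted p = 0.0267) and a fit without the replicate block (adjusted p = 0.0360).

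Of 10 genes for NEDD8 conjugation, 1 was higher (10%) and 2 were lower (20%), against 19.6% and 21.2% of all genes. DCUN1D5 rose by 0.49, and DCUN1D2 and UBE2F changed by −0.56 and −0.31 on the log2 scale (adjusted p = 0.00841, 0.00416 and 0.0285). DCUN1D proteins help to attach NEDD8 to cullins, and UBE2F is the NEDD8-conjugating enzyme that acts with RNF7 on CUL5. Of 11 genes for NEDD8 removal, mostly subunits of the COP9 signalosome, 1 was higher and 1 lower (9.09% each). COPS7A rose (0.31, adjusted p = 0.0486) and the NEDD8 protease SENP8 fell (−0.59, adjusted p = 0.00500). Leaving out bear 1305, 1316, 1317 or 1511 ended the UBE2F call (adjusted p = 0.0710, 0.0692, 0.0742 or 0.0606, range 0.00108 to 0.0742). Leaving out any bear but 1509 ended that of COPS7A (0.0853 to 0.131), as did a fit without the replicate block (0.0541, range 0.00728 to 0.147). In all, COPS7A lost its call in 8 of 14 alternative fits. Of 4 genes for the exchange of receptors and RBX1 inhibition, 2 were higher (50%) and 0 lower. CAND2 ran from 71.3 to 81.9 CPM in summer (median 77.2) and from 107 to 172 CPM in winter (median 141). CAND2, the muscle form of the exchange factor, did not overlap between seasons (log2 fold change 0.87 ± 0.11 (SE), adjusted p = 0.000222), while CAND1 had −0.01 ± 0.13 (adjusted p = 0.938) and CACUL1 rose by 0.44 (adjusted p = 0.00673).

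Of the 7 tested F-box genes that carry other symbols, 1 rose (14.3%) and 2 fell (28.6%), against 19.6% and 21.2% of all genes. LMO7, a protein of cell junctions and the nuclear envelope in muscle, rose (log2 fold change 1.09 ± 0.13 (SE), adjusted p = 0.000173). FBH1, a DNA helicase, fell (log2 fold change −0.998 ± 0.14 (SE), adjusted p = 0.000325), and so did CCNF (cyclin F), with 0 to 35 reads per library (log2 fold change −2.55 ± 0.56 (SE), adjusted p = 0.00461). SKP2, the receptor for the cell cycle inhibitor p27, had −0.25 ± 0.14 (adjusted p = 0.164).

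Over all genes 19.6% were called higher and 21.2% lower. Among receptors of the other cullins, those of CUL3 included 7 rises (11.5%) and 16 falls (26.2%) of 61 genes, with a median log2 fold change of −0.17. Those of CUL4 included 7 rises (28.0%) and 4 falls (16.0%) of 25 genes, with a median of 0.16. Receptors of CUL2 and CUL5 were split, with 10 rises and 10 falls of 46 genes (21.7% each, near the shares of all genes) and a median of 0.02. The largest called changes for CUL3 were those of KCTD21 (−1.72), KCTD17 (−1.69) and KBTBD13 (−1.57), with adjusted p = 0.00134, 0.00160 and 0.00283. These 3 genes had few reads, 7 to 87, 4 to 53 and 8 to 63 per library. For CUL2 and CUL5 they were CISH (−2.52), a cytokine-induced inhibitor of JAK and STAT signalling, SPSB4 (−1.86) and KLHDC3 (−1.37), with adjusted p = 0.00240, 0.00151 and 1.59e-05. CISH had 5 to 390 reads per library and SPSB4 3 to 28. For CUL4 they were DCAF16 (1.24), DCAF10 (0.95) and DCAF17 (−0.77), with adjusted p = 5.91e-05, 0.000196 and 0.0187, the last of which was 0.0538 without bear 1305 (range 0.0107 to 0.0538). KLHL41, a sarcomere protein named after its value was seen, ran from 6211 to 9707 CPM in summer and from 17145 to 27233 CPM in winter (log2 fold change 1.49 ± 0.17 (SE), adjusted p = 0.000104). The CUL7 partners OBSL1 and CCDC8 were not called, at 0.10 and −0.38 (adjusted p = 0.581 and 0.134), and CCDC8 was called lower without bear 1317 (−0.55, adjusted p = 0.0302, range 0.0302 to 0.471).

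**Figure D5:**
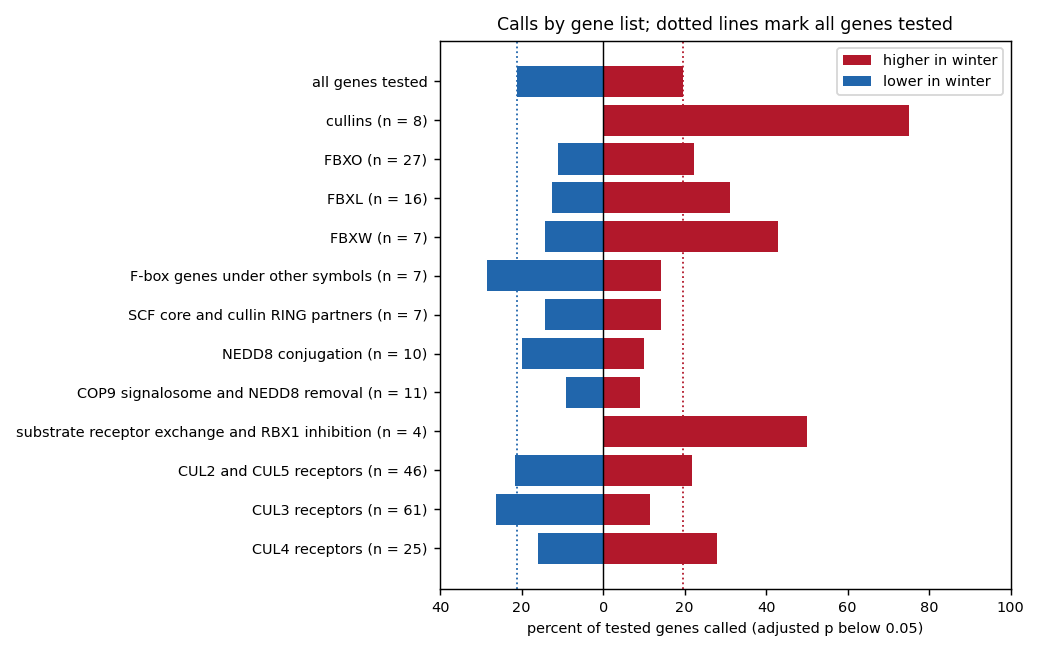
Percent of tested genes called lower (blue, to the left) or higher (red, to the right) in winter at an adjusted p below 0.05, for all genes, the 4 member families and the partner lists (y axis, with the number tested). Dotted lines mark 19.6% higher and 21.2% lower, the shares over all genes, and the cullins show 6 of 8 higher with no fall.

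Related members were compared with each other by the change of their ratio within each bear, in 7 pairs, with a two-sided exact sign-flip permutation test over 6 bears that cannot give less than 0.0312, so that 1 pair alone could not go below an adjusted p of 0.219. No pair passed after Benjamini-Hochberg adjustment over the 7, and 1 had an unadjusted p below 0.05. In CUL2 and CUL5 the ratio of CUL2 to CUL5 was lower in winter in 6 of 6 bears, by −0.26 ± 0.055 (SD) on the log2 scale, with an exact p of 0.0312, the smallest possible, and an adjusted p of 0.219. The ratio of FBXW7 to FBXW11 changed by −0.71 ± 0.47 and was lower in 5 of 6 bears (exact permutation p = 0.0625, adjusted p = 0.219). FBXO30 to FBXO40 changed by 0.26 ± 0.41, higher in 5 of 6 bears (exact permutation p = 0.0938, adjusted p = 0.219). CUL4A to CUL4B changed by −0.17 ± 0.23 (exact permutation p = 0.156, adjusted p = 0.263), with single bears from −0.46 to 0.12. CUL7 to CUL9, FBXL2 to FBXL20 and FBXO34 to FBXO46 changed by −0.11 ± 0.16, −0.35 ± 1.07 and −0.33 ± 0.95, with adjusted p = 0.263, 0.469 and 0.401 by the exact permutation test.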

How the data were processed

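Biopsies of the vastus lateralis of 6 bears gave 12 stranded mRNA libraries, grouped by the season in the labels. Per the methods and the labels, the authors aligned single reads to ASM358476v1 with TopHat2 2.1.1 and assigned them to genes by strand with featureCounts 1.6.2. The deposited values are raw counts per gene, with 0 unnamed lines. The assignment of libraries to sequencing lanes is not given in the sources used here, so a lane effect was not tested.

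Genes with 30 or more reads over the 12 libraries were kept (17290). Counts were scaled by TMM and fitted with edgeR 4.0.16 (R 4.3.3) by glmQLFit and glmQLFTest, with the bear as replicate block. Benjamini-Hochberg adjustment ran over all genes tested. The standard error of a log2 fold change is its size divided by the square root of F. CPM in single libraries used the TMM-scaled library sizes, and log2 CPM a prior count of 2. DESeq2 1.42.0, limma 3.58.1 (voom), RLE scaling, library totals, no filter, filterByExpr, no replicate block, stricter limits and leaving out each bear were the alternatives. Script output was checked on simulated data.

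The same bears were sampled in both seasons, per the methods. As a check of the pairing, each library's departure from its season's mean was correlated over genes: r was 0.0903 to 0.344 for 2 libraries of the same animal, with a median of −0.0634 for 30 pairs of unlike animals. The highest r of unlike animals, 0.142, lay above the lowest of the same animal, so this check does not separate every bear. The lowest chi-square per gene between libraries of a season was 42.3, far above counting noise, so all were kept as separate samples. Ratios within a bear were compared by an exact sign-flip permutation test.

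Members and lists were chosen with earlier results of these data known. Genes named are all cullins, the 12 largest called rises and falls of F-box genes, 4 genes studied in atrophy, the 3 F-box genes with the most reads, members of the pairs and the 3 largest called changes of each partner list. Other members are named to account for the whole set. No genome of the files' build was used here, so no coordinates or sequences are given. FBXO32 was left out by the member rule. Some items, among them 1 member that the counts include, are not reported here.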

Additional observations from a re-analysis of the deposited data

Results flagged for a closer look

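In each member and season, the highest or lowest of 6 libraries was examined for a gap to its nearest neighbour, divided by the range, above Dixon's 95% critical value for 6 samples. Of 116 such groups 11 passed, and chance passes about 1 in 20. Of the 11, 6 were in the winter library of bear 1509, which also stood apart over all genes.

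In that library CUL7 was lowest at 4.73 log2 CPM (nearest library 5.75), FBXO7 at 3.15 (3.64), FBXO25 at 2.73 (2.96), FBXO46 at 0.50 (1.48) and FBXL14 at −1.70 (0.09), while FBXL16 was highest at 3.68 (−0.90).

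In the winter library of bear 1511, FBXO6 was highest at 4.09 log2 CPM (nearest library 3.14) and FBXO9 lowest at 6.01 (6.48). In the summer library of bear 1316, FBXO40 was lowest at 6.22 (7.10) and FBXW9 highest at 0.24 (−0.63). In winter FBXO40 was lowest in bear 1305 at 6.50 (6.80).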

How the results depend on the processing

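Called members kept their direction in all 364 values from the alternative fits. The count of 20 members higher was 23 in edgeR without the replicate block (39.7% of members against 19.6% of all genes), 20 and 24 in DESeq2 with and without it (34.5% against 18.8%, 42.1% against 20.8%), 15 without the filter (25.9% against 13.6%), 11 with library totals (19.0% against 15.6%), 11 to 19 when 1 bear was left out (19.0% to 32.8% against 15.5% to 21.1%, and lowest without bear 1305) and 9 with the stricter limits. The 6 lower were 4 to 6 with a bear left out (6.90% to 10.3% against 17.8% to 21.9%) and 2 with the stricter limits. Of all genes, the stricter limits left 12.2% higher and 13.4% lower. For the partner lists, the 30 higher were 18 with library totals (10.4% of partners against 15.6% of all genes). They were 20 to 33 with a bear left out (11.6% to 19.1% against 15.5% to 21.1%). The 36 lower were 29 to 39 with a bear left out (16.8% to 22.5% against 17.8% to 21.9%). With library totals 23.7% of partners were lower, against 23.6% of all genes. The stricter limits left 17 of the 173 partners higher and 26 lower. The cause of these shifts was not tested. For the paralog pairs, 1 pair alone cannot pass the adjustment over 7, and with 5 bears the exact test cannot go below 0.0625, so their calls say nothing of stability. Values that changed sign belonged to genes with small changes that were not called. With library totals these were CUL2 (−0.0645), FBXO4 (−0.0119), FBXO7 (−0.0360), FBXO25 (−0.0103), FBXO34 (−0.0284), FBXO42 (−0.0116), FBXW8 (−0.0585) and the partner SKP1 (−0.0215). With 1 bear left out they were CUL2 (−0.0272 to 0.0532), FBXO11 (−0.0128 to 0.151), FBXO30 (−0.178 to 0.0242), FBXO34 (−0.0277 to 0.157), FBXO4 (−0.00577 to 0.142), FBXO7 (−0.000127 to 0.105), FBXW8 (−0.0983 to 0.107) and FBXW9 (−0.0172 to 0.503), and the partners SKP1 (−0.021 to 0.124) and CAND1 (−0.0847 to 0.0752), given as the range over the 6 fits. Depth limits the members with few reads, such as FBXO47, FBXL2, FBXO24 and FBXL15, whose standard errors were 0.34 to 0.43.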

Other observations

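Gene entries without a symbol in these counts can be F-box genes under a newer name. By gene identifier in a newer RefSeq table (assembly UrsArc2.0), LOC113270508 is FBXO44, a relative of FBXO6. It had 286 reads over the 12 libraries and was lower in winter, with a log2 fold change of −1.12 ± 0.36 (adjusted p = 0.029), higher in 1 of 6 bears. LOC113248653 is FBXW5 in that table and had 15 reads, below the filter. Neither entered the counts of members.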
